A study of Mus musculus with 15 samples.

Results

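The 39 autophagy and lysosome genes described here are a gene module out of 30672 genes in the count table. These genes were chosen by name, with earlier results of these data known. They cover the complexes that start autophagy, membrane supply, the ubiquitin-like conjugation machinery, the Atg8 family, cargo and mitophagy receptors, 2 lysosomal transcription factors, proteins of the lysosomal membrane and lumen, and the segregase *Vcp*. Transcripts were counted by mRNA sequencing in the tibialis anterior, a leg muscle, of 15 male 129Pas mice aged 7 weeks. The untreated groups were WT (n = 4) and Mtm1-/y (n = 4), and the treated groups were WT + TAM (n = 4) and Mtm1-/y + TAM (n = 3). Mtm1-/y males carry a disrupted X-linked *Mtm1*, which encodes the phosphoinositide phosphatase myotubularin, and WT males carry an intact copy. The labels name the allele only by this genotype, and TAM stands for tamoxifen, a modulator of oestrogen receptors, for which the sources used here give no dose, route or schedule.

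Autophagy encloses cytoplasm in a double membrane and delivers it to lysosomes for breakdown. A kinase complex and a lipid kinase complex start the membrane, conjugation enzymes attach Atg8-family proteins to it, receptors bind cargo and Atg8 proteins together, and acid hydrolases in the lysosome degrade the load. Muscle depends on this pathway for turnover of mitochondria and sarcomere proteins, and myotubularin acts on the same phosphoinositides that mark autophagic and endosomal membranes.

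All 39 genes passed the filter on low counts, which kept 15533 genes. Total counts per library were 18042558 to 45823277, and levels are given as CPM, each library's counts scaled to a common depth with TMM factors. *Mtm1* itself measured 14.9 to 15.6 CPM in WT, 13.5 to 17.7 CPM in WT + TAM, 2.91 to 3.63 CPM in Mtm1-/y and 3.04 to 3.71 CPM in Mtm1-/y + TAM, so that each library matched its labelled genotype. The fast-fibre markers expected of this muscle summed to 143597 CPM or more in every library. Their sum was 181052 to 243825 CPM in WT and 143597 to 188297 CPM in Mtm1-/y. Under tamoxifen it was 170540 to 202113 CPM in WT + TAM and 159043 to 161806 CPM in Mtm1-/y + TAM. In WT + TAM, slow-fibre markers summed to 40.0 to 1216 CPM, and the highest value was that of replicate 1. In that library fibroblast markers summed to 5148 CPM, against 917 to 1899 CPM in the rest of its group. Its endothelial markers summed to 387 CPM, against 622 to 698 CPM. WT + TAM replicate 1 thus stood apart, and results without it are given further on. Mtm1-/y replicate 1 also stood apart within its group, so results that rest on it are given with and without it. The labels do not say which mice shared a litter or a batch, and in whole muscle a smaller number of cells of a type and less RNA per cell cannot be told apart.

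Promoters of the members were searched for the letters of known motifs. TFEB and TFE3 are basic helix-loop-helix factors that bind the palindrome CACGTG, an E-box, in promoters of lysosomal and autophagy genes. The members were named from these same classes of genes, so the search for CACGTG was not independent of the choice. In RefSeq (GRCm38.p6) 33 of the 39 genes had a promoter window, which runs from 250 bases before to 50 bases after a start site, and 10 of the 33 (30.3%) held CACGTG, against 8.91% of 17492 protein-coding genes. The 8-base core TCACGTGA, which contains the E-box, lay in 3 of the 33 windows (9.09%, *Atg3*, *Ctsd* and *Mcoln1*), against 1.41% of protein-coding genes. Both strands were searched. Stretches upstream of the RefSeq start sites of 6 members that overlap no exon in GENCODE M21 are shown because they hold these letters, with each CACGTG in capitals. The window of *Atg7* lies inside its GENCODE gene.
*Lamp1* chr8:13159081-13159160 (+ strand): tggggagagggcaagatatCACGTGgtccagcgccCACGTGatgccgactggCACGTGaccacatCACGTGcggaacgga
*Mcoln1* chr8:3500429-3500456 (+ strand): tagaaagggtcgcgcttgtCACGTGttc
*Ctsd* chr7:142388039-142388077 (- strand): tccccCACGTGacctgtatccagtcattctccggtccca
*Gaa* chr11:119267798-119267847 (+ strand): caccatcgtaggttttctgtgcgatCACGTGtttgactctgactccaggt
*Atg3* chr16:45158719-45158768 (+ strand): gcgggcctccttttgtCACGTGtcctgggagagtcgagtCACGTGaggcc
*Atg7* chr6:114670941-114670990 (+ strand): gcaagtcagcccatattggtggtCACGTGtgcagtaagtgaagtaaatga

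*Lamp1* had 4 E-boxes within 61 bases of its start site, the largest number among the members. *Mcoln1*, *Ctsd* and *Atg3* had 2 each, of which 1 is shown for *Mcoln1* and *Ctsd*, and *Atg5*, *Atg7*, *Atg14*, *Bnip3*, *Ctsl* and *Gaa* had 1 each. The FOXO letters GTAAACA were in 0 of 33 windows, against 3.45% of protein-coding genes. The antioxidant response core TGACNNNGC was in 6 (18.2%), against 14.8%. In the comparison of Mtm1-/y with WT described further on, 3 of the 10 members with CACGTG were called, as were 10 of the 23 members whose window lacked it, beside 30.4% of all tested genes. A match of letters is not a binding site, and none was tested here.

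Levels of the 39 genes were first ordered in WT muscle per exon length, as CPM per kilobase of exon (RPKM). *Lamp1*, a glycoprotein of the lysosomal membrane, had the highest mean with 153 ± 7.13 RPKM (SD, n = 4), followed by the protease *Ctsd* (152 ± 7.99) and the cargo receptor *Sqstm1* (128 ± 22.5), and the ranges of these neighbours overlapped. *Map1lc3a* followed with 91.3 ± 5.36 RPKM, and its WT libraries all lay above those of *Ctsb* (59.5 ± 0.543), which all lay above those of *Gaa* (51.7 ± 3.75). The WT mean of *Lamp1* was above that of 98.9% of the tested genes. At the other end were the transcription factor *Tfe3* (1.23 ± 0.112 RPKM), *Uvrag* (1.36 ± 0.191) and the conjugation enzyme *Atg7* (1.47 ± 0.0585), and the WT range of *Uvrag* overlapped those of both others. Of 38 neighbouring pairs in the whole order, 27 had overlapping WT ranges. In Mtm1-/y the highest mean was that of *Map1lc3a* (223 ± 75.9 RPKM, SD, n = 4), but its range overlapped that of *Sqstm1*. Without Mtm1-/y replicate 1 the mean of *Sqstm1* was the higher one, at 203 ± 51.1 RPKM against 186 ± 22.1 RPKM (SD, n = 3 each).

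The comparison of Mtm1-/y with WT addressed which of these genes differ when myotubularin is missing. In Mtm1-/y muscle, 13 of the 39 genes were higher and 1 was lower (14 called, 35.9%). The higher genes included 4 of the 5 Atg8-family genes, the cargo receptor *Sqstm1* and the lysosomal hydrolases *Ctsl* and *Hexa*, and the lower gene was the kinase *Ulk2*. The largest differences were those of *Ctsl* (2.59-fold) and *Map1lc3a* (2.44-fold), and the other called genes differed by less than 2-fold. Without Mtm1-/y replicate 1 the log2 fold change of *Ctsl* was 0.74, below those of *Map1lc3a* (1.03) and *Hexa* (0.89). Differences are given as log2 fold changes, and calls rest on edgeR's quasi-likelihood test with a Benjamini-Hochberg adjusted p under 0.05 over all 15533 genes. Over all tested genes 30.4% were called, 15.5% higher and 14.9% lower, so the share of members called was near that of all genes and the members' calls were mostly in the higher direction. The median log2 fold change was 0.23 over the 39 genes and 0.00 over all tested genes. The values of 15 members did not overlap between the groups (13 higher, 2 lower), against 30.5% of all genes. The list was chosen with earlier results of these data known, so these counts are a description.

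**Figure D1:**
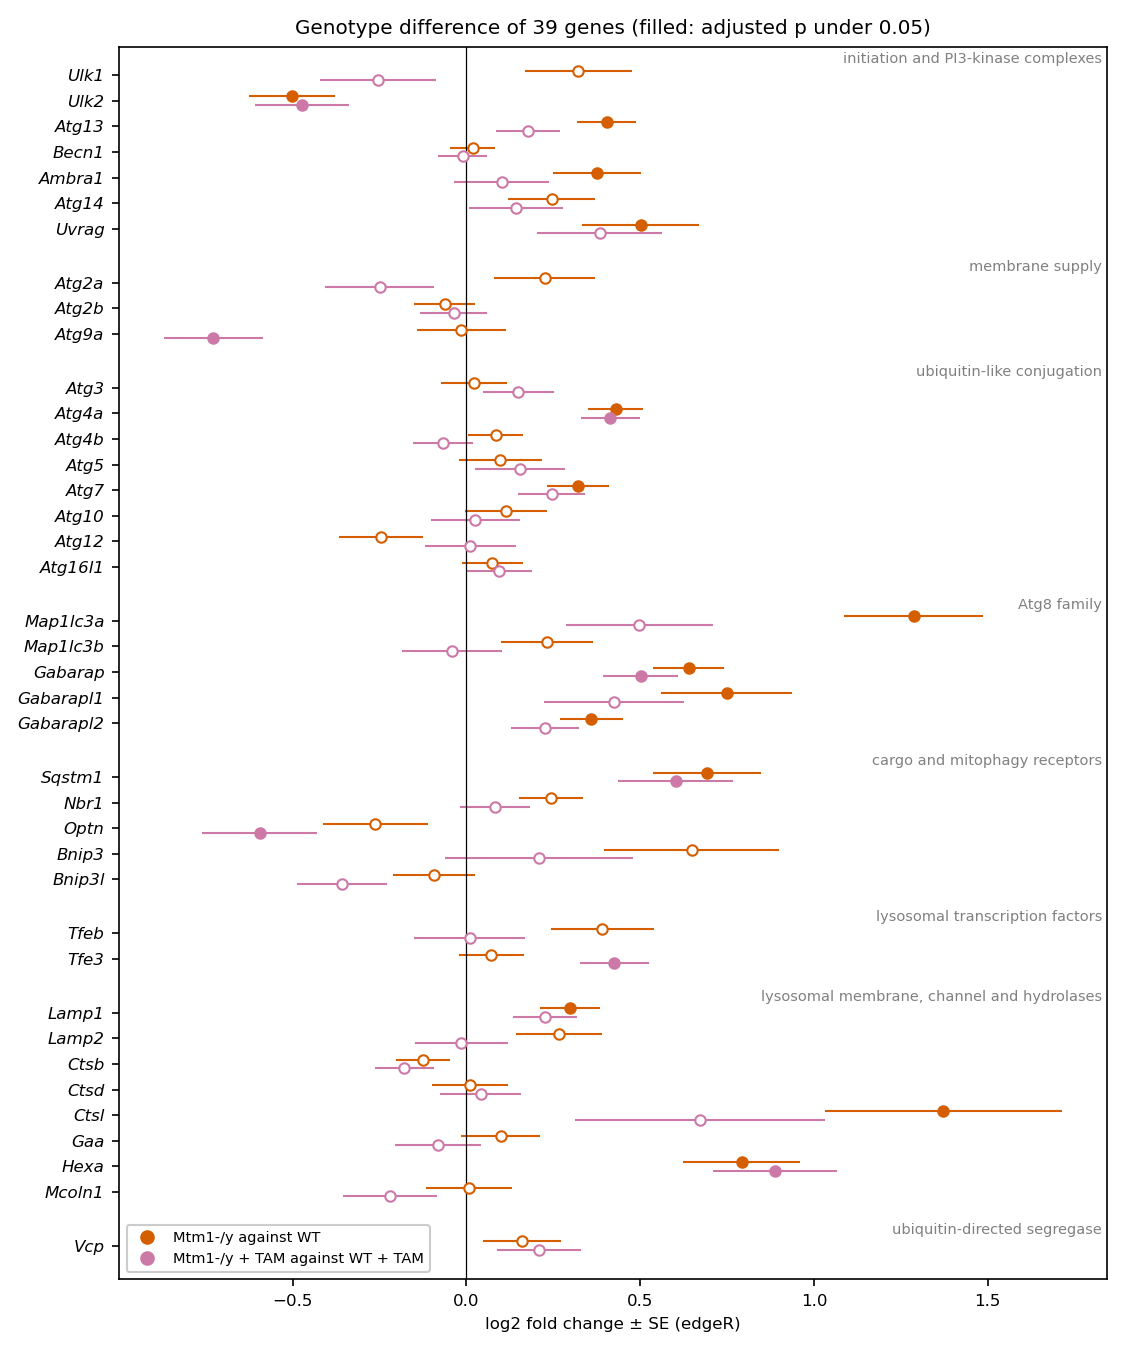
Log2 fold change ± SE of the 39 genes for Mtm1-/y against WT and for Mtm1-/y + TAM against WT + TAM, grouped by role, with filled points for an adjusted p under 0.05. Filled points lie to the right for 13 genes without and 5 genes with tamoxifen, and to the left for 1 and 3 genes.

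Among the 7 genes of the initiation and PI3-kinase complexes, 3 were higher and 1 was lower in Mtm1-/y. These calls were 57.1% of the 7, beside 30.4% of all tested genes. ULK1 and ULK2 are the kinases of the starting complex, and ATG13 is its adaptor. *Ulk2* (chr11:61775649-61855073) measured 149.6, 172, 146 and 151 CPM in the WT libraries, 80.6, 120.3, 122 and 114 CPM in Mtm1-/y, 185, 149, 162 and 149 CPM in WT + TAM and 123, 118 and 107 CPM in Mtm1-/y + TAM. All 7 mutant libraries lay below all 8 WT and WT + TAM libraries, with the lowest value in Mtm1-/y replicate 1. Gene positions are those of GENCODE M21 on GRCm38. The log2 difference was -0.50 (SE 0.12, adjusted p = 0.00677) and -0.38 (adjusted p = 0.00812) without that library. *Atg13* (chr2:91674618-91710576) measured 43.3, 42.6, 44.3 and 46.9 CPM in the WT libraries, 66.6, 56.4, 55.4 and 55.8 CPM in Mtm1-/y, 45.8, 42.7, 48.0 and 54.2 CPM in WT + TAM and 54.9, 53.7 and 53.1 CPM in Mtm1-/y + TAM. Every Mtm1-/y library was above every WT library, and the log2 difference was 0.40 (SE 0.09, adjusted p = 0.00284). *Ulk1* had 74.6 ± 11.0 in WT and 93.2 ± 16.1 CPM in Mtm1-/y (SD, n = 4 each) and was not called, at 0.32 (SE 0.15, adjusted p = 0.125).

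Ambra1 and Uvrag are partners of Beclin 1 in the lipid kinase complexes. *Ambra1* (chr2:91730134-91918849) measured 29.0, 35.2, 30.8 and 33.8 CPM in the WT libraries, 55.7, 34.1, 40.2 and 37.0 CPM in Mtm1-/y, 37.8, 32.7, 35.7 and 37.5 CPM in WT + TAM and 39.6, 35.7 and 40.4 CPM in Mtm1-/y + TAM. The WT and Mtm1-/y ranges overlapped, and the log2 difference of 0.38 (SE 0.13, adjusted p = 0.0355) was 0.21 (adjusted p = 0.0968) without Mtm1-/y replicate 1. *Uvrag* (chr7:98885021-99141141) measured 9.89, 12.5, 14.0 and 12.8 CPM in the WT libraries, 24.7, 14.8, 14.1 and 15.9 CPM in Mtm1-/y, 12.5, 10.9, 13.1 and 12.7 CPM in WT + TAM and 17.1, 13.2 and 17.8 CPM in Mtm1-/y + TAM. The groups did not overlap in either genotype comparison, but the highest of the 15 values was again that of Mtm1-/y replicate 1, and the log2 difference of 0.50 (SE 0.17, adjusted p = 0.0334) was 0.28 (adjusted p = 0.108) without it. *Becn1*, which encodes Beclin 1 itself and shares 3104 of 7065 exon bases with *Cntd1* on the other strand, had 72.3 ± 1.52 in WT and 73.2 ± 2.47 CPM in Mtm1-/y (SD, n = 4 each), a difference of 0.02 (SE 0.06, adjusted p = 0.859). Its complex partner *Atg14* was not called (0.25, adjusted p = 0.152). Exons of *Uvrag* share 1589 bases with an antisense gene, and because the sources used here give no strand setting for the counting, reads of such partners cannot be told apart.

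Of the 8 conjugation genes, *Atg4a* and *Atg7* were higher (25% called, beside 30.4% of all tested genes). ATG4A is a protease that primes and releases Atg8 proteins, and ATG7 is the enzyme that activates both ubiquitin-like systems. *Atg4a* (chrX:140956907-141164270) measured 12.8, 13.3, 13.1 and 13.3 CPM in the WT libraries, 17.6, 16.5, 18.7 and 17.8 CPM in Mtm1-/y, 15, 13.6, 12.6 and 13.8 CPM in WT + TAM and 19.2, 18 and 17.9 CPM in Mtm1-/y + TAM. All 7 mutant libraries were above all 8 others, and the log2 difference was 0.43 (SE 0.08, adjusted p = 0.000954). *Atg7* (chr6:114643097-114860614) measured 9.69, 10.3, 10.3 and 10.7 CPM in the WT libraries, 13.9, 12.7, 11.5 and 12.9 CPM in Mtm1-/y, 10.4, 8.77, 10.3 and 10.3 CPM in WT + TAM and 12.2, 11.5 and 11.7 CPM in Mtm1-/y + TAM. Here as well the 7 mutant values were above the 8 others, at 0.32 (SE 0.09, adjusted p = 0.0141). The other 6 genes were not called, namely the conjugating enzymes *Atg3* and *Atg10*, the protease *Atg4b* and the parts of the Atg8 ligase *Atg5*, *Atg12* and *Atg16l1*, with log2 fold changes from -0.25 (*Atg12*) to 0.11 (*Atg10*). The membrane suppliers were not called either, namely the lipid transfer proteins *Atg2a* (0.22, adjusted p = 0.257) and *Atg2b* (-0.06, adjusted p = 0.629) and the scramblase *Atg9a* (-0.01, adjusted p = 0.945).

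In the Atg8 family 4 of 5 members were higher in Mtm1-/y (80% called, beside 30.4% of all tested genes). These small ubiquitin-like proteins are attached to the autophagic membrane and bind cargo receptors. *Map1lc3a* (chr2:155276297-155278073), which encodes LC3A, measured 117, 106, 107 and 101 CPM in the WT libraries, 394, 229.6, 189.8 and 239 CPM in Mtm1-/y, 131, 129, 190.5 and 184 CPM in WT + TAM and 253, 184 and 235 CPM in Mtm1-/y + TAM. All Mtm1-/y libraries lay above all WT libraries, and replicate 1 was the highest of all 15. The log2 difference was 1.29 (SE 0.20, adjusted p = 0.000314), and 1.03 (adjusted p = 0.000183) without that library. *Gabarap* (chr11:69991143-69994951) measured 71.6, 82.4, 99.0 and 84.9 CPM in the WT libraries, 133, 142, 113 and 138 CPM in Mtm1-/y, 99.8, 87.6, 99.1 and 95.8 CPM in WT + TAM and 131, 138 and 137 CPM in Mtm1-/y + TAM. Every mutant library exceeded every WT and WT + TAM library, at 0.64 (SE 0.10, adjusted p = 0.000358). *Gabarapl1* (chr6:129533160-129542346) measured 28.4, 35.2, 32.6 and 36.8 CPM in the WT libraries, 83.8, 47.8, 38.6 and 53.0 CPM in Mtm1-/y, 42.9, 33.1, 32.5 and 41.9 CPM in WT + TAM and 55.4, 45.3 and 50.9 CPM in Mtm1-/y + TAM. Its log2 difference was 0.75 (SE 0.19, adjusted p = 0.00814), and 0.49 (adjusted p = 0.0125) without Mtm1-/y replicate 1, so that the size of its difference, unlike its direction, rested in part on that library.

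*Gabarapl2* (chr8:111940703-111953612) measured 9.47, 10.1, 11.1 and 9.77 CPM in the WT libraries, 14.1, 12.5, 12.9 and 12.4 CPM in Mtm1-/y, 10.2, 9.58, 11.3 and 11.0 CPM in WT + TAM and 11.7, 12.1 and 13.1 CPM in Mtm1-/y + TAM. The 7 mutant values were above the 8 others, and the log2 difference was 0.36 (SE 0.09, adjusted p = 0.00814). *Map1lc3b*, which encodes LC3B, the form most used as an autophagy marker, was not called. It had 116 ± 15.9 in WT and 136 ± 28.5 CPM in Mtm1-/y (SD, n = 4 each), at 0.23 (SE 0.13, adjusted p = 0.199).

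**Figure D2:**
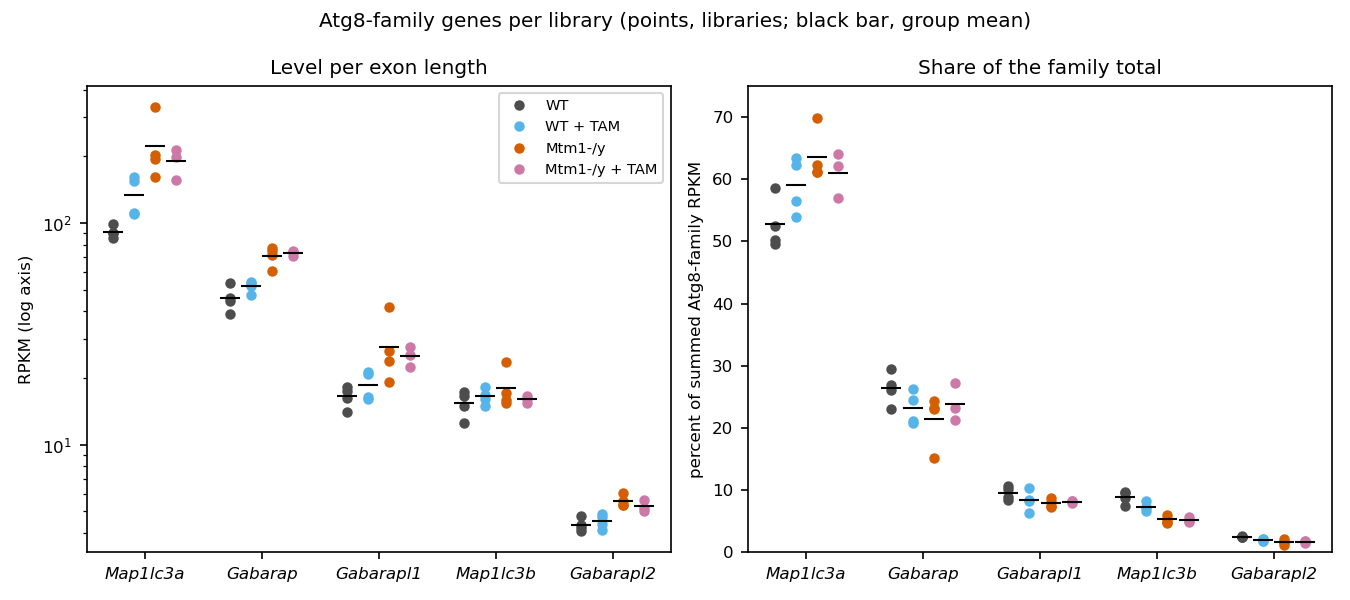
Level per exon length (RPKM, log axis) and share of the summed RPKM of the 5 Atg8-family genes in each of the 15 libraries, with a black bar for each group mean. *Map1lc3a* has the highest level in every group, and the share of *Map1lc3b* is lower in all mutant libraries (4.75 to 6.08%) than in all WT and WT + TAM libraries (6.74 to 9.66%).

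Summed over the family, Atg8 transcripts amounted to 173 ± 6.28 RPKM in WT, 226 ± 30.6 in WT + TAM, 345 ± 91.8 in Mtm1-/y (SD, n = 4 each) and 309.6 ± 31.8 in Mtm1-/y + TAM (SD, n = 3). Every mutant library was above every other library, with 263 RPKM or more against 254 or less. The Mtm1-/y mean rested in part on replicate 1, with 477 RPKM. Replicates 2, 3 and 4 had 318, 263 and 324 RPKM, and the Mtm1-/y + TAM libraries had 274 to 334 RPKM. *Map1lc3a* made up 52.7 ± 4.14% of the sum in WT and 63.7 ± 4.21% in Mtm1-/y. *Map1lc3b* made up 8.85 ± 1.01% and 5.30 ± 0.591%, without overlap, although its own level was not called different. A share also falls when other members of the family rise. The shares depend on the exon length used, which for *Map1lc3b* was 7517 bases, against 4138 in its longest transcript. *Gabarapl2*, the lowest of the family, made up 2.51 ± 0.0872% and 1.68 ± 0.345%.

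Of the cargo receptors, *Sqstm1*, which encodes p62, was higher in Mtm1-/y. *Sqstm1* (chr11:50199366-50210827) measured 319, 484, 472 and 444 CPM in the WT libraries, 734, 717, 494 and 830.3 CPM in Mtm1-/y, 480.1, 404, 460.0 and 429 CPM in WT + TAM and 726, 620.0 and 671 CPM in Mtm1-/y + TAM. All 7 mutant libraries were above all 8 others, and the log2 difference was 0.69 (SE 0.16, adjusted p = 0.00393). *Optn*, which encodes the receptor optineurin (chr2:5020642-5064051), measured 129, 134, 128 and 117 CPM in the WT libraries, 121, 86.4, 121 and 95.0 CPM in Mtm1-/y, 124, 90.3, 142 and 146 CPM in WT + TAM and 98.2, 74.0 and 77.3 CPM in Mtm1-/y + TAM. The WT and Mtm1-/y ranges overlapped, and the difference of -0.26 (SE 0.15, adjusted p = 0.201) was not called. *Nbr1*, a receptor related to p62, had 112 ± 7.14 in WT and 132 ± 14.5 CPM in Mtm1-/y (SD, n = 4 each) without overlap, and was not called, at 0.24 (SE 0.09, adjusted p = 0.0589). The mitophagy receptor *Bnip3* measured 40.3, 48.8, 59.5 and 52.0 in WT and 139.7, 57.1, 61.6 and 55.6 CPM in Mtm1-/y. Its log2 difference of 0.65 (SE 0.25, adjusted p = 0.0652) was not called, and it was 0.21 (adjusted p = 0.22) without Mtm1-/y replicate 1, the library with the highest value. *Bnip3l* was not called (-0.09, adjusted p = 0.578).

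The lysosomal transcription factors were not called in this comparison. *Tfeb* measured 46.9, 62.3, 63.6 and 53.0 in WT and 51.7, 82.7, 78.2 and 83.2 CPM in Mtm1-/y. Here Mtm1-/y replicate 1 was the lowest library of its group, and the log2 difference of 0.39 (SE 0.15, adjusted p = 0.0579) became 0.53 (adjusted p = 0.00418), a call, without it. *Tfe3* was 0.07 (SE 0.09, adjusted p = 0.591). *Vcp*, which unfolds ubiquitinated proteins, was 0.16 (SE 0.11, adjusted p = 0.302).

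In the lysosome, the hydrolases *Ctsl* and *Hexa* and the membrane protein *Lamp1* were higher in Mtm1-/y. *Ctsl*, which encodes the cysteine protease cathepsin L (chr13:64359337-64370890), measured 91.1, 105, 128 and 123 CPM in the WT libraries, 598, 200.2, 143 and 217 CPM in Mtm1-/y, 142, 116, 105 and 133 CPM in WT + TAM and 214, 200.1 and 178 CPM in Mtm1-/y + TAM. All 7 mutant libraries exceeded all 8 others, and Mtm1-/y replicate 1 stood far above the next highest value of 217 CPM. The log2 difference was 1.37 (SE 0.34, adjusted p = 0.00882), and 0.74 (adjusted p = 0.00219) without replicate 1. *Hexa*, which encodes a subunit of beta-hexosaminidase (chr9:59539540-59565109), measured 26.4, 31.3, 33.9 and 31.0 CPM in the WT libraries, 42.4, 63.6, 41.9 and 64.1 CPM in Mtm1-/y, 38.1, 28.8, 23.7 and 25.4 CPM in WT + TAM and 52.4, 59.9 and 48.5 CPM in Mtm1-/y + TAM. The 7 mutant libraries were above all 8 others, and the log2 difference was 0.79 (SE 0.17, adjusted p = 0.00273). *Lamp1* had 409.9 ± 19.1 in WT and 504 ± 45.3 CPM in Mtm1-/y (SD, n = 4 each), at 0.30 (SE 0.09, adjusted p = 0.0174).

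The remaining lysosomal members were not called. They were *Lamp2* (0.27, adjusted p = 0.118), *Ctsb* (-0.13, adjusted p = 0.24), *Ctsd* (0.01, adjusted p = 0.956), the acid alpha-glucosidase *Gaa* (0.10, adjusted p = 0.55), which is deficient in Pompe disease, and the calcium channel *Mcoln1* (0.01, adjusted p = 0.975). *Ctsb* was slightly lower in every Mtm1-/y library (313 to 345 CPM) than in every WT library (357 to 365 CPM). As a share of the summed RPKM of the 3 cathepsins, *Ctsl* was 7.51 ± 0.938% in WT and 16.5 ± 8.43% in Mtm1-/y (SD, n = 4 each), with the highest library at 29.1%. *Ctsd* was 66.5 ± 1.15% and 61.2 ± 4.64%. Exons of *Ctsl* share 395 bases with a processed pseudogene on its strand and 1742 bases with an antisense gene, and 808 of the 2351 exon bases of *Ctsd* are shared with *Gm49369* on its strand, so these 2 levels are uncertain. Shorter stretches on the opposite strand are shared by *Hexa* (255 of 1996 exon bases), *Lamp1* (249 of 2675), *Gabarapl1* (570 of 2013) and *Sqstm1* (580 of 3356).

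**Figure D3:**
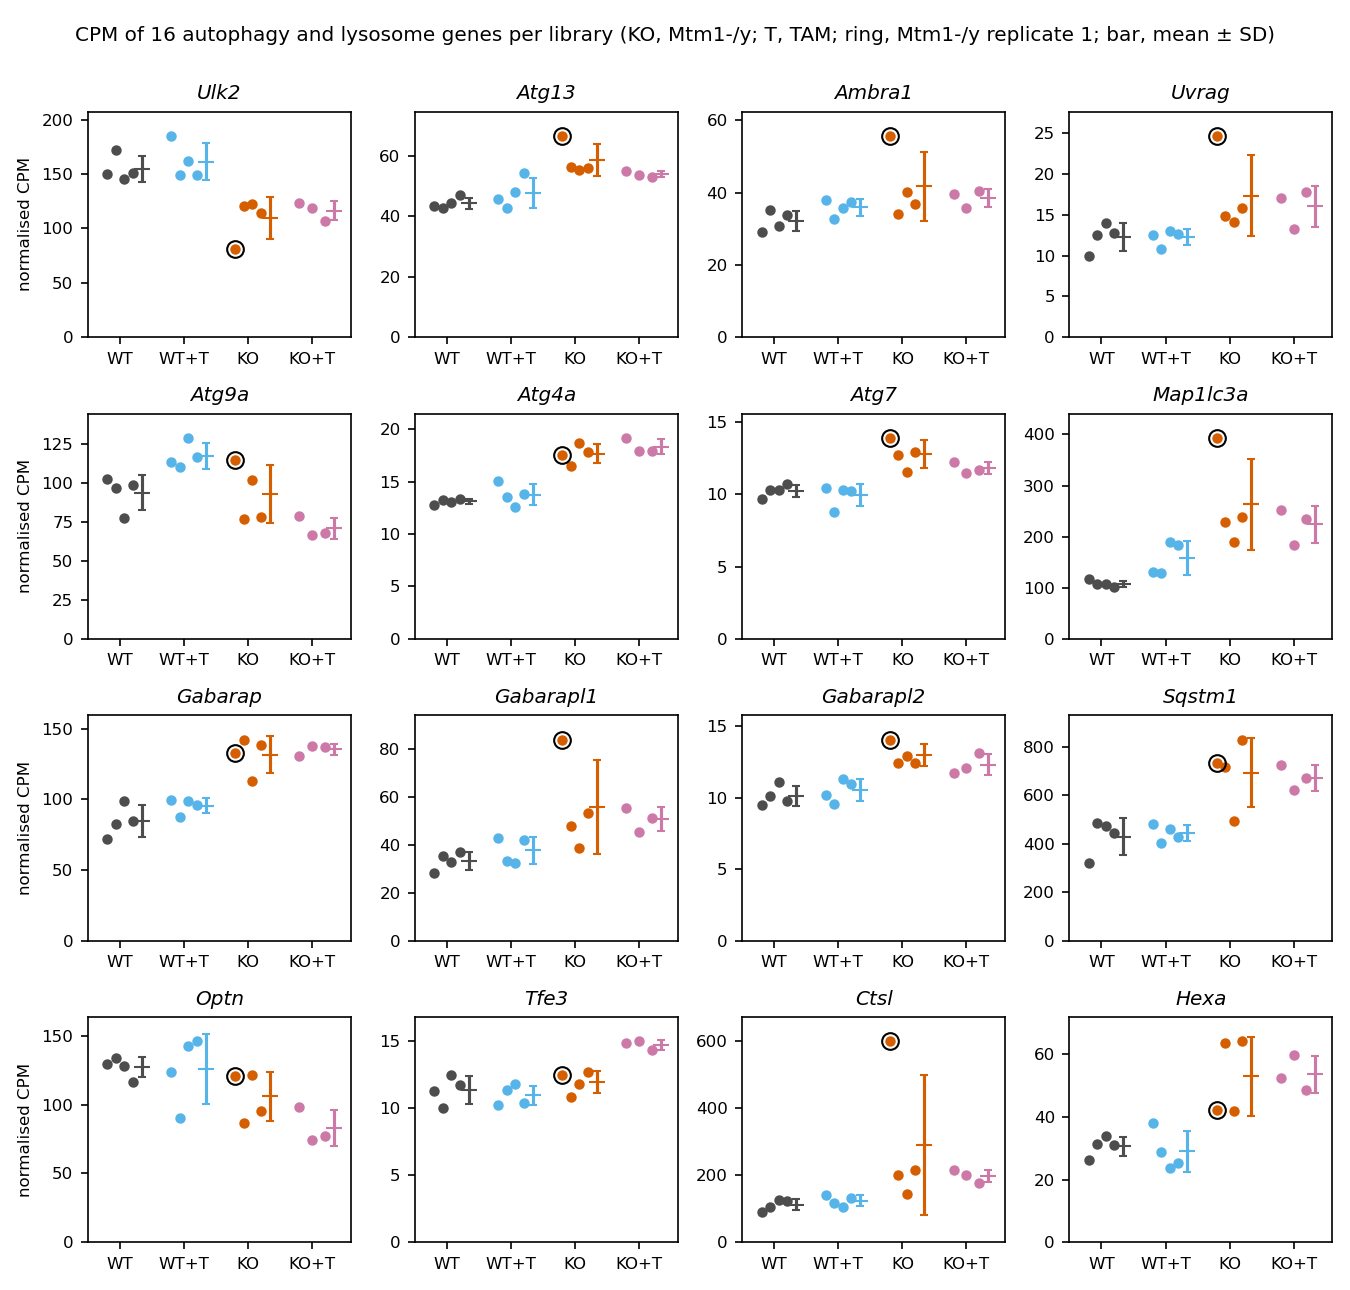
Normalised CPM in each of the 15 libraries for the 16 called genes with the largest differences, with the mean ± SD beside the points and a ring around Mtm1-/y replicate 1. For *Ulk2*, *Atg4a*, *Atg7*, *Gabarap*, *Gabarapl2*, *Sqstm1*, *Ctsl* and *Hexa* all 7 mutant libraries lie on the same side of all 8 others.

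The same genotype comparison under tamoxifen, Mtm1-/y + TAM against WT + TAM, has no library of the untreated comparison in its groups. All libraries were fitted together, so the filter, the scaling and the estimate of spread were shared. The untreated and treated comparisons were therefore not fully independent. Of the 39 genes, 5 were higher and 3 lower in Mtm1-/y + TAM (8 called, 20.5%), beside 20.1% of all tested genes (10.6% higher, 9.46% lower). The median log2 fold change was 0.09 over the members and -0.02 over all genes. The values of 17 members did not overlap between these groups (12 higher, 5 lower), against 31.6% of all genes. The genes called in both comparisons were *Ulk2*, *Atg4a*, *Gabarap*, *Sqstm1* and *Hexa*, each in the same direction, which is 35.7% of the 14 and 62.5% of the 8. Of the 39 genes, 30 (76.9%) had the same direction in both comparisons, against 73.4% of all tested genes.

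The 5 shared genes had an unadjusted p of 0.05 or more in the test of the interaction described further on. Their log2 fold changes under tamoxifen were -0.47 (SE 0.13, adjusted p = 0.0218) for *Ulk2* and 0.41 (SE 0.08, adjusted p = 0.00343) for *Atg4a*. Those of the higher cargo and Atg8 genes were 0.50 (SE 0.11, adjusted p = 0.00489) for *Gabarap* and 0.60 (SE 0.17, adjusted p = 0.0188) for *Sqstm1*. *Hexa* differed by 0.89 (SE 0.18, adjusted p = 0.00336), the largest difference among the members in this comparison. The *Ulk2* call was lost without Mtm1-/y + TAM replicate 2 or 3, and the *Sqstm1* call without Mtm1-/y + TAM replicate 1 or 3, with adjusted p values of up to 0.0915 and 0.0726.

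*Atg9a*, *Optn* and *Tfe3* were called under tamoxifen but not in the untreated comparison. *Atg9a* (chr1:75180860-75192196), which encodes a multispanning membrane protein that seeds autophagosomes, measured 103, 97.2, 77.5 and 99.1 CPM in the WT libraries, 115, 77.2, 102 and 78.4 CPM in Mtm1-/y, 113, 111, 129 and 117 CPM in WT + TAM and 78.9, 66.5 and 67.8 CPM in Mtm1-/y + TAM. Each Mtm1-/y + TAM value was below each WT + TAM value, and the log2 difference was -0.73 (SE 0.14, adjusted p = 0.00266), while the untreated groups overlapped. Of its 5762 exon bases, 1832 are shared with *Gm29253* on the same strand, so its level is uncertain. *Optn* was lower at -0.60 (SE 0.16, adjusted p = 0.0192), although the groups overlapped through WT + TAM replicate 2, and the call was lost in 4 of the fits without a library, with an adjusted p of up to 0.0945. *Tfe3* (chrX:7762560-7775202), which encodes a factor that drives lysosomal genes, measured 11.2, 10, 12.5 and 11.7 CPM in the WT libraries, 12.4, 10.8, 11.8 and 12.7 CPM in Mtm1-/y, 10.3, 11.4, 11.8 and 10.4 CPM in WT + TAM and 14.8, 15 and 14.3 CPM in Mtm1-/y + TAM. The 3 Mtm1-/y + TAM libraries were the highest of all 15, at 0.43 (SE 0.10, adjusted p = 0.00798).

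Members called only between the untreated groups were not called under tamoxifen. *Map1lc3a* was 0.50 (SE 0.21, adjusted p = 0.109), and its groups overlapped. *Ctsl* was 0.67 (SE 0.36, adjusted p = 0.211) and *Gabarapl1* 0.43 (SE 0.20, adjusted p = 0.152). For *Ctsl* and *Gabarapl1* every Mtm1-/y + TAM library was above every WT + TAM library. *Gabarapl2* (0.23, adjusted p = 0.118), *Lamp1* (0.23, adjusted p = 0.10), *Atg7* (0.24, adjusted p = 0.0882) and *Uvrag* (0.38, adjusted p = 0.148) had no overlap between the groups and were not called. *Atg13* (0.18, adjusted p = 0.196) and *Ambra1* (0.10, adjusted p = 0.658) overlapped. The difference between the 2 genotype comparisons, tested as the interaction, was called for none of these genes. Without Mtm1-/y replicate 1, which is in neither of these groups but enters the filter, the scaling and the shared estimate of spread, 14 members were called, among them *Uvrag*, *Map1lc3a*, *Gabarapl1*, *Bnip3l*, *Lamp1* and *Ctsl*. Over all tested genes 26.8% were then called, against 20.1% with every library. Without Mtm1-/y + TAM replicate 3, 5 members were called, beside 13.5% of all tested genes.

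Tamoxifen itself was compared within each genotype, with the same libraries as above, and 0 of the 39 genes were called by edgeR in WT + TAM against WT (0.309% of all genes called) or in Mtm1-/y + TAM against Mtm1-/y (0.0129%). DESeq2 and limma-voom also called 0 members in either comparison. Without WT + TAM replicate 1, edgeR called 0 members and 0.716% of all genes in WT + TAM against WT. At an unadjusted p under 0.05 there were 3 members in WT, against 11.3% of all genes, and 4 in Mtm1-/y, against 5.54%. The smallest adjusted p among the members was 0.236 in WT and 0.855 in Mtm1-/y. The median log2 fold change of the members was 0.06 in WT and -0.07 in Mtm1-/y.

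In WT the 3 were *Tfeb*, *Map1lc3a* and *Atg9a*, each with a positive difference. *Tfeb* measured 90.4, 65.6, 83.3 and 72.0 CPM in WT + TAM, all above the WT values of 46.9, 62.3, 63.6 and 53.0 CPM, and the log2 difference was 0.46 (unadjusted p = 0.00675, adjusted p = 0.236). For *Map1lc3a* the 4 WT + TAM libraries were above the 4 WT libraries, at 0.56 (unadjusted p = 0.0125, adjusted p = 0.282), and it was called only with Mtm1-/y replicate 1 and WT + TAM replicate 1 left out together (adjusted p = 0.0215). *Atg9a* was 0.32 (unadjusted p = 0.0245, adjusted p = 0.355).

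In Mtm1-/y the values of *Atg9a* (-0.39, unadjusted p = 0.0137, adjusted p = 0.855), *Atg4b* (-0.24, unadjusted p = 0.0138, adjusted p = 0.855) and *Optn* (-0.35, unadjusted p = 0.0492, adjusted p = 0.855) had negative differences that were not called. *Tfe3* had a positive one, at 0.30 (unadjusted p = 0.00808, adjusted p = 0.855). For *Tfe3*, each of the 3 treated mutant libraries was above each of the 4 untreated ones. *Atg4b*, which encodes the main Atg8 protease, had 34.5 ± 2.27 CPM in Mtm1-/y (SD, n = 4) and 29.3 ± 1.28 CPM in Mtm1-/y + TAM (SD, n = 3), without overlap.

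**Figure D4:**
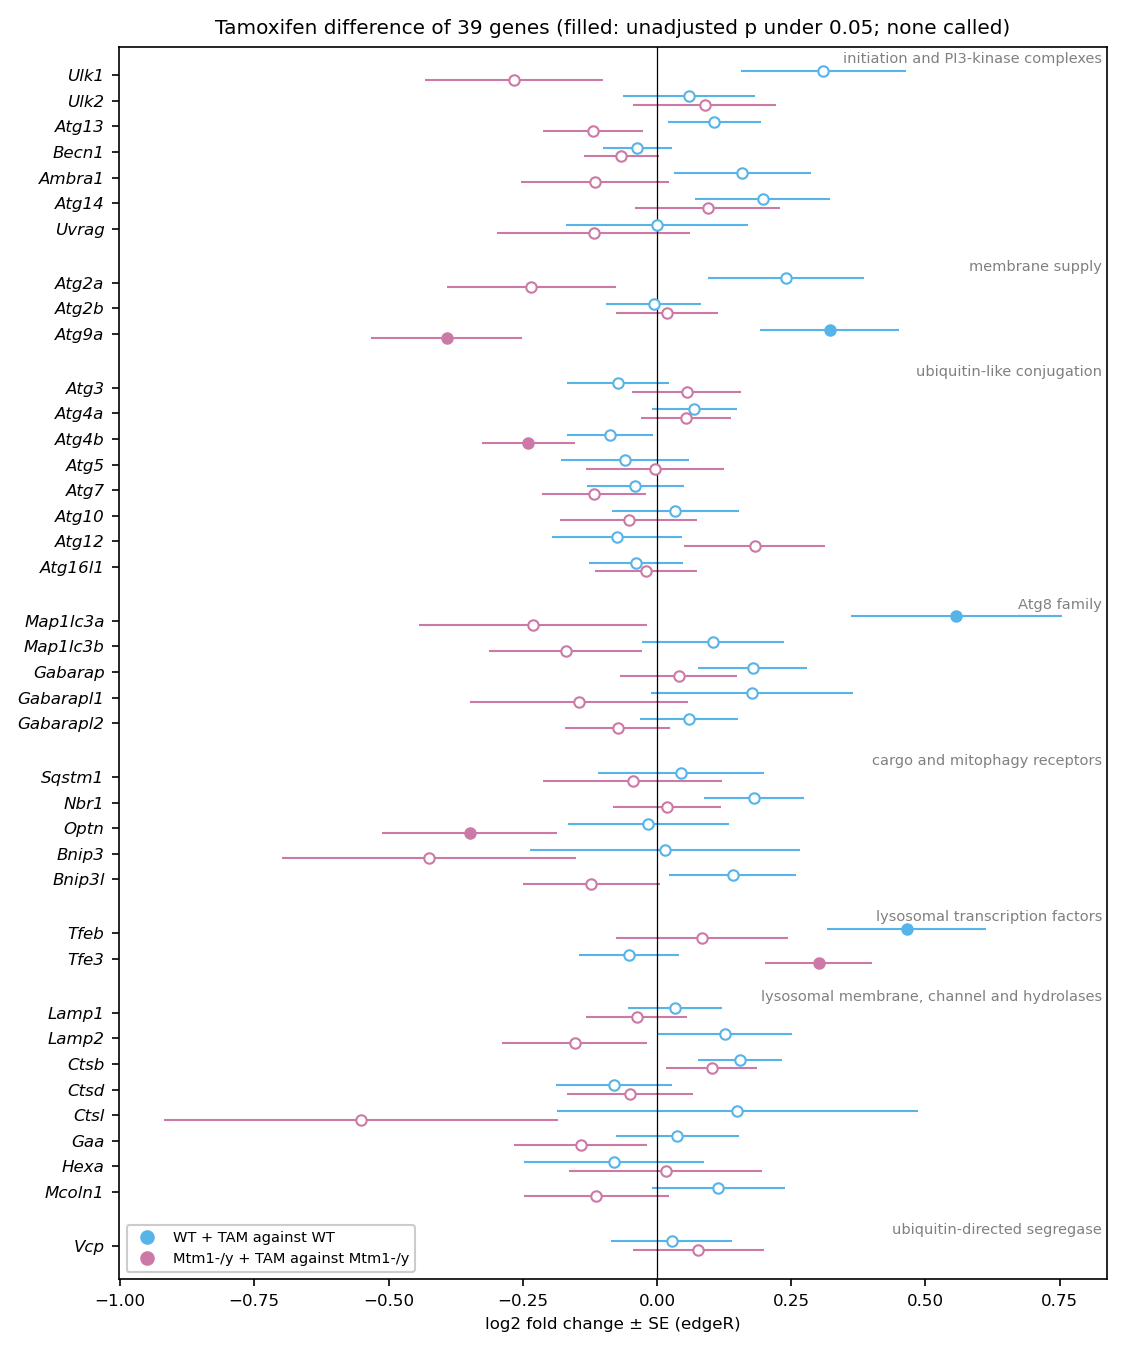
Log2 fold change ± SE of the 39 genes for WT + TAM against WT and for Mtm1-/y + TAM against Mtm1-/y, with filled points for an unadjusted p under 0.05. None was called after adjustment, and the 3 filled points in WT lie to the right, while 3 of 4 in Mtm1-/y lie to the left.

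Whether the response to tamoxifen differed between genotypes was tested by the interaction, the difference between the 2 tamoxifen log2 fold changes. EdgeR called 0 of 15533 genes (0%) and so 0 members, with 10.6% of all genes and 5 members at an unadjusted p under 0.05. Limma-voom called 0 members and DESeq2 0, and over all genes they called 0 and 74. The 5 members were *Atg9a* (-0.71, unadjusted p = 0.0019, adjusted p = 0.308), *Map1lc3a* (-0.79, unadjusted p = 0.0157, adjusted p = 0.402), *Ulk1* (-0.58, unadjusted p = 0.0221, adjusted p = 0.414), *Atg2a* (-0.47, unadjusted p = 0.0421, adjusted p = 0.458) and, with a positive sign, *Tfe3* (0.35, unadjusted p = 0.0199, adjusted p = 0.413). For *Atg9a*, *Map1lc3a*, *Ulk1* and *Atg2a* the tamoxifen difference was positive in WT and negative in Mtm1-/y. The median interaction was -0.13 over the members and -0.01 over all genes, and 29 of 39 were negative. Without Mtm1-/y replicate 1 the *Map1lc3a* interaction was -0.53 (adjusted p = 0.499) and the *Atg2a* interaction -0.26 (adjusted p = 0.586).

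Mtm1-/y replicate 1 held the highest of the 15 values for 17 of the 39 genes and the lowest for 4. Its summed fibroblast (372 CPM) and erythrocyte (14.9 CPM) markers were the lowest of the 15 libraries, and its macrophage markers summed to 43.6 CPM. Their part in its values was not tested. WT replicate 1, the deepest library, held the lowest value for 13 genes. Without Mtm1-/y replicate 1, 14 members were called in Mtm1-/y against WT, beside 29.6% of all tested genes. *Ambra1* and *Uvrag* were then lost and *Tfeb* and *Vcp* gained, and the median log2 fold change of the members was 0.15. *Vcp*, for which replicate 1 was the lowest mutant library (141 CPM against 176 to 220), was then 0.27 (adjusted p = 0.0391).

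**Figure D5:**
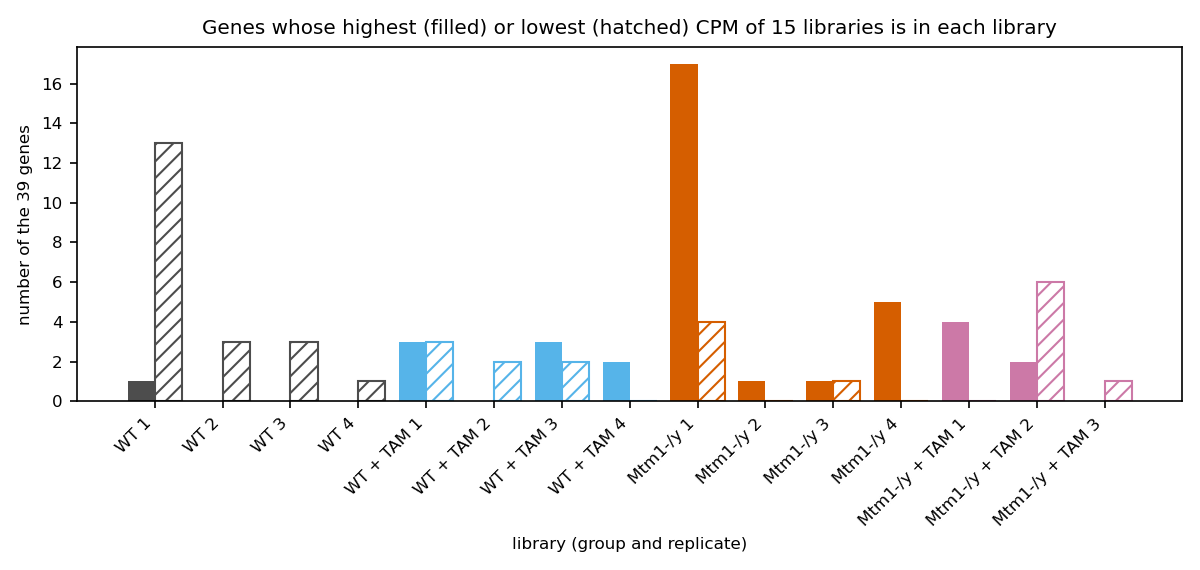
Number of the 39 genes whose highest (filled) or lowest (hatched) normalised CPM among the 15 libraries is found in each library. Mtm1-/y replicate 1 holds 17 of the highest values, and WT replicate 1 holds 13 of the lowest.

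Another 150 genes of the same pathways were listed besides the 39, and 148 were tested. In Mtm1-/y against WT, 48 (32.4%) were called, 34 higher and 14 lower, and under tamoxifen 36 (24.3%) were called, 21 higher and 15 lower, beside 30.4% and 20.1% of all tested genes. Neither tamoxifen comparison called any of them in edgeR or limma-voom, and DESeq2 called 2 in WT, *Foxo3* and *Akt1s1*, both higher, and 0 in Mtm1-/y. In edgeR 14 of the 148 had an unadjusted p under 0.05 in WT, against 11.3% of all genes, and 8 in Mtm1-/y, against 5.54%. Of the subunits of the V-ATPase, the proton pump that acidifies lysosomes, 11 of 16 (68.8%) were called in each genotype comparison. All 11 were higher without tamoxifen, and 9 were higher and 2 lower under it.

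*Atp6ap2*, an accessory subunit, had 15.5 ± 1.36 in WT and 35.5 ± 4.68 CPM in Mtm1-/y (SD, n = 4 each), which gave a log2 difference of 1.20 (SE 0.12, adjusted p = 8.72e-06), and 1.26 (SE 0.13, adjusted p = 1.85e-05) under tamoxifen. *Atp6v1h*, a regulatory subunit of the cytosolic domain, differed by 1.07 (adjusted p = 0.00102) without and 0.86 (adjusted p = 0.00965) with tamoxifen. *Atp6v1a*, the catalytic subunit, differed by 0.80 (adjusted p = 0.00226) and 0.94 (adjusted p = 0.00218). Both isoforms of subunit a on the list were the lower genes under tamoxifen, named after their values were seen, *Atp6v0a1* (-0.40, adjusted p = 0.0263) and *Atp6v0a2* (-0.36, adjusted p = 0.0179). The median log2 fold change of the 16 subunits was 0.35 and 0.36 in the 2 comparisons. The count of called subunits was 10 to 12 without and 8 to 12 with tamoxifen over the alternatives. In the untreated comparison, 1 of the called subunits was lower with upper-quartile scaling, as was 1 without Mtm1-/y replicate 1.

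Other lysosomal hydrolases moved in both directions, with 6 higher and 5 lower of 40 in Mtm1-/y against WT. These calls were 27.5% of the list, beside 30.4% of all tested genes. The cysteine protease *Ctss* (1.52, adjusted p = 0.011), the nuclease *Dnase2a* (1.15, adjusted p = 0.00010) and the sulfatase *Galns* (1.1, adjusted p = 0.00299) were higher. *Psap*, the precursor of the saposins, was lower at -0.72 (adjusted p = 0.000554), with 869 ± 22.2 in WT and 526 ± 96.0 CPM in Mtm1-/y (SD, n = 4 each). The sulfatases *Arsa* (-0.58, adjusted p = 0.044) and *Ids* (-0.36, adjusted p = 0.0119) were also lower, the *Arsa* call being lost in 12 of 24 alternatives. Under tamoxifen *Dnase2a* (1.07, adjusted p = 0.000403), *Galns* (1.09, adjusted p = 0.00773), *Psap* (-0.58, adjusted p = 0.00678) and *Ids* (-0.33, adjusted p = 0.036) were called in the same directions. This *Ids* call was lost in 6 of 24 alternatives.

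Of 22 other lysosomal membrane genes tested, 4 were higher and 3 lower (31.8% called, beside 30.4% of all tested genes). The tetraspanin *Cd63* was higher at 1.28 (adjusted p = 7.02e-06) and 0.85 (adjusted p = 0.000552) under tamoxifen, and *Tmem192* at 0.48 (adjusted p = 0.00239) and 0.39 (adjusted p = 0.0202). The *Tmem192* call under tamoxifen was lost in 5 of 24 alternatives. *Ostm1* (-1.08, adjusted p = 0.00070), *Laptm4b* (-0.84, adjusted p = 0.000441) and *Mfsd8* (-0.43, adjusted p = 0.0187) were lower, and also under tamoxifen, where the *Ostm1* call was lost in 10 of 24 alternatives. *Cd68*, which is made mainly in macrophages, was higher at 1.87 (adjusted p = 0.0238), and 0.90 (adjusted p = 0.0893) without Mtm1-/y replicate 1. The *Cd68* call was lost in 9 of 24 alternatives.

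Macrophages are rich in lysosomes. Of 12 macrophage markers 1 (8.33%), *Cd68*, was called higher in Mtm1-/y, beside 30.4% of all tested genes called. None of the 12 was called under tamoxifen by edgeR, where 4 had an unadjusted p under 0.05. Their summed level was 31.9 to 59.9 CPM in the WT libraries, 39.4 to 102 CPM in Mtm1-/y, 48.6 to 72.7 CPM in WT + TAM and 75.5 to 129 CPM in Mtm1-/y + TAM, so that the ranges did not overlap under tamoxifen. None of the 12 had a group mean of 0, and the lowest was that of *Itgam* in Mtm1-/y (0.430 CPM). Of 8 endothelial markers, 6 (75%) were lower in Mtm1-/y, with sums of 330.2 to 411 CPM against 546 to 689 CPM in WT. The part of these cells in the differences of the lysosomal genes was not tested.

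The other cargo and mitophagy receptors gave 5 higher and 1 lower of 15 without tamoxifen (40%, beside 30.4% of all tested genes). *Retreg1*, a receptor for turnover of the endoplasmic reticulum, was higher at 1.68 (adjusted p = 0.0221), with 192 to 1209 CPM in Mtm1-/y against 119 to 162 CPM in WT, and the log2 fold change was 0.61 (adjusted p = 0.0212) without Mtm1-/y replicate 1. *Tex264*, another receptor of this kind, was higher at 0.55 (adjusted p = 0.00134), as was the mitochondrial receptor *Phb2* at 0.37 (adjusted p = 0.0208), which was 0.25 (adjusted p = 0.0537) without Mtm1-/y replicate 1. In 4 of 24 alternatives the *Retreg1* call was lost, and in 3 the *Phb2* call. The mitophagy receptor *Fundc1* was lower at -0.44 (adjusted p = 0.0223). Under tamoxifen 1 of the 15 (6.67%, beside 20.1% of all tested genes) was called, and none of these 4 genes was. Other autophagy machinery gave 2 higher genes, the adaptor *Plekhm1* (0.51, adjusted p = 0.000586) and the tethering subunit *Vps18* (0.34, adjusted p = 0.0123), and 3 lower genes, *Atg4c* (-0.37, adjusted p = 0.0487), the fusion protein *Snap29* (-0.37, adjusted p = 0.0045) and *Vps41* (-0.29, adjusted p = 0.00912), of 28. The calls were 17.9% of these 28 genes, beside 30.4% of all tested genes. The *Atg4c* call was lost in 16 of 24 alternatives.

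Regulators of mTORC1 and of lysosomal transcription gave 6 higher and 2 lower of 27 (29.6% called, beside 30.4% of all tested genes). *Foxo1* and *Foxo3*, transcription factors that induce autophagy genes in muscle, were higher at 1.73 (SE 0.42, adjusted p = 0.00842) and 1.23 (SE 0.29, adjusted p = 0.0065). *Foxo1* had 20.1 ± 1.75 CPM in WT, with a range of 18.7 to 22.5 CPM, and 20.3 to 125 CPM in Mtm1-/y, so that the groups overlapped. Without Mtm1-/y replicate 1 the values were 1.22 (adjusted p = 0.0256) and 0.90 (adjusted p = 0.0167). Under tamoxifen *Foxo1* (-0.44, adjusted p = 0.541) and *Foxo3* (-0.37, adjusted p = 0.436) were not called, with group means in Mtm1-/y + TAM of 26.8 ± 1.82 and 31.4 ± 1.57 CPM (SD, n = 3), against 36.3 ± 14.2 and 40.6 ± 11.0 CPM in WT + TAM (SD, n = 4). Their interactions of -2.16 and -1.60 had unadjusted p values of 0.00395 and 0.00223 and were not called by edgeR (adjusted p = 0.357 and 0.321), while DESeq2 called both (-2.19, adjusted p = 0.0268, and -1.62, adjusted p = 0.0279). *Prkaa1*, a catalytic subunit of AMPK, was higher without (0.61, adjusted p = 0.0132) and with tamoxifen (0.73, adjusted p = 0.0111). *Ppp3cb*, a calcineurin subunit (-0.60, adjusted p = 0.0011), and the folliculin partner *Fnip2* (-0.42, adjusted p = 0.0329) were lower, the latter call being lost in 9 of 24 alternatives.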

How the data were processed

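RNA was extracted from tibialis anterior muscle with TRI Reagent, and stranded poly(A) libraries were sequenced (15 libraries). The values used were the deposited gene counts, whole numbers per gene and library that were not normalised. STAR 2.5.3a, Bowtie2 2.2.8, HTSeq 0.6.1p1, cutadapt 1.10 and mm10/GRCm38 appear in the submitters' processing notes. The sources used here do not state their order and roles, the strand setting or the annotation release. If strand was not used, reads in exons shared with antisense genes could not be assigned by strand. How such reads were counted is not stated.

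Groups followed the labels. The members, lists and tests were chosen with earlier results of these data known. Genes were kept with filterByExpr (minimum count 10, 15533 of 30672 genes) and scaled by TMM factors. The 4 groups were fitted in 1 model with edgeR 4.0.16 (robust quasi-likelihood test, R 4.3.3). P-values were adjusted by Benjamini-Hochberg over all tested genes, and genes were called at an adjusted p under 0.05. SEs were derived from the log2 fold change and the F statistic. RPKM divided CPM by the exon length in GENCODE M21, to which all 30672 identifiers matched. A count of 0 allows up to 3 counts, or 0.0672 to 0.159 CPM by library, for counting error only. The common biological coefficient of variation was 20.8%. P-values set a group difference against the spread between libraries within groups, for which all 4 groups share 1 estimate. Per-library values were given for 16 of the 17 members called in either genotype comparison, all but the one with the smallest difference, and for uncalled members that a result turned on. In each other pathway list, up to 3 called genes with the largest difference in each direction were named, and any others were named after their values were seen. Alternatives were other scalings and filters, DESeq2 1.42.0, limma-voom 3.58.1, a replicate block, fits of 2 groups, an added fold threshold and fits without single libraries. Figures were drawn with matplotlib 3.10.9.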

Additional observations from a re-analysis of the deposited data

Results flagged for a closer look

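Among 39 genes in the 3 groups of 4 libraries, 13 of 117 sets of values held a library far from the other 3, where chance alone marks about 5% of sets. Of the 13, 10 were values of Mtm1-/y replicate 1. In that library the protease *Ctsl* measured 598 CPM, with the other 3 at 143 to 217 CPM, and the mitophagy receptor *Bnip3* 139.7 CPM, with the others at 55.6 to 61.6 CPM. *Atg2a* was 71.6 CPM against 42.2 to 45.5 CPM, *Atg13* 66.6 against 55.4 to 56.4, and *Mcoln1* 35.3 against 25.5 to 27.0. *Bnip3l* was 25.6 CPM against 18.5 to 19.5, *Uvrag* 24.7 against 14.1 to 15.9, and *Atg14* 14.6 against 11.3 to 11.7. Values below those of the group were found for *Tfeb*, with 51.7 CPM against 78.2 to 83.2, and *Atg12*, with 19.5 CPM against 29.3 to 31.0.

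The remaining 3 values lay in other libraries. *Atg10* was 12.6 CPM in Mtm1-/y replicate 3 against 8.58 to 9.23 CPM in the rest of its group. *Atg7* was 8.77 CPM in WT + TAM replicate 2 against 10.3 to 10.4, and *Atg2a* was 39.1 CPM in WT replicate 3 against 44.3 to 44.9.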

How the results depend on the processing

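In Mtm1-/y against WT, 10 of the 14 called members were called in all 24 alternatives other than the added fold threshold. *Ambra1* was lost in 8 of them, *Uvrag* in 7, *Atg7* with no filter and *Lamp1* without WT replicate 1. The count of called members was 12 to 17 over the other scalings, filters, tools and fits (17 with DESeq2) and 11 to 16 without single libraries. The share of all tested genes called was 13.1 to 35.5% and 23.9 to 33%. With a log2 fold change beyond 1 also required the count was 2, *Map1lc3a* and *Ctsl*, because the other differences were smaller, beside 9.89% of all genes. The median of the members was 0.15 without Mtm1-/y replicate 1, 0.29 without Mtm1-/y replicate 3 and 0.15 with Mtm1-/y replicate 1 and WT + TAM replicate 1 both left out. Under tamoxifen, 5 of 8 calls held in all 24 alternatives. The count was 5 without Mtm1-/y + TAM replicate 3, 14 without Mtm1-/y replicate 1, 15 with both libraries left out, 11 with DESeq2 or a fit of 2 groups, and 0 with the fold threshold. The share of all tested genes called moved as well, and was 20.1% in the main fit. In the same order it was 13.5%, 26.8%, 29.9%, 23.8% (DESeq2), 20.3% (2 groups) and 6.01%.

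For tamoxifen within WT, 1 member was called with both libraries left out, beside 2.26% of all genes, and 0 otherwise. The median of the members was 0.02 without WT replicate 1 or WT + TAM replicate 1 and 0.10 without WT + TAM replicate 2. Within Mtm1-/y the median of the members was -0.14 without Mtm1-/y replicate 3 and -0.0022 without replicate 1, and that of the interaction was -0.22 and -0.078. No median of the members changed sign, and no member with an unadjusted p under 0.05 reversed direction. Other members did change sign, for example 4 of 21 in Mtm1-/y against WT with upper-quartile scaling. In Mtm1-/y + TAM against Mtm1-/y, 13 of 35 did so without Mtm1-/y replicate 1. Over all genes the fold threshold left 1536 and 934 calls in the genotype comparisons, and DESeq2 called 298 genes in WT + TAM against WT. The median WT level of the members was 10.2 RPKM per exon union and 15.5 RPKM per longest transcript. In no comparison were the deviations of all same-numbered libraries correlated above 0.1 (range -0.113 to 0.306). In Mtm1-/y + TAM against Mtm1-/y 2 of 3 pairs were. The numbers were therefore not taken to pair samples. With a replicate block 13 and 8 members were called in the genotype comparisons (28.8% and 18% of all genes) and 0 in the others. Precision was limited by 3 or 4 libraries per group, and the member with the lowest mean CPM in WT, *Atg10*, measured 9.13 CPM, far above the floor.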
